A study of Mus musculus with 2 samples.

Results

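The genes described here encode claudins, occludin and the scaffold protein ZO-1, the parts of the tight junction that seals neighbouring epithelial cells to each other. They were taken as the rows of the deposited table whose platform gene symbol was Cldn1, Cldn3, Cldn4, Cldn7, Cldn8, Cldn12, Cldn23, Ocln or Tjp1. All 9 were found, each on 1 row, among 30698 named genes. RNA came from the corneal epithelium of C57BL/6 mice of both sexes, 8 weeks old, in 2 groups of 1 array each. In the injured group the epithelium of 1 eye had been scraped away through its whole thickness, out to the limbal border, with a 0.5 mm rust ring remover, and was collected about 48 hours later with 10% of the wound still open. In the uninjured group the epithelium of the fellow, unscraped eyes was collected at the same time. Both eyes belonged to mice anaesthetised with ketamine and xylazine, so the uninjured eyes are those of wounded animals. How many mice stand behind each array, and whether animals were pooled, is not stated in the labels.

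Claudins span the cell membrane and join, between adjacent cells, into strands that close the space between them or let selected ions through. Which claudins a cell makes sets how tight and how ion-selective its barrier is. Occludin lies in the same strands and helps to order them, and ZO-1, the product of Tjp1, binds the inner ends of claudins and occludin and ties them to actin. In the cornea the flat surface cells carry the tight junctions, and the basal cells below them are joined mainly by other contacts.

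The stretches just before the transcription starts of 4 of these genes are printed so that genes with different values can be compared in sequence. Of the 9 genes, Cldn8 and Cldn23 had no entry in the RefSeq promoter table for GRCm38.p6. Both were more than 2-fold apart between the arrays, so the comparison does not cover them. The other 7 had an entry, and the 4 genes printed had 1 start there. They are Cldn1, the gene of the set with the highest difference, the neighbouring genes Cldn4 and Cldn3, and Tjp1. Each line gives the 250 bases before the start, 5′ to 3′ on the strand of the gene. Capitals mark matches, on either strand, to the GC box GGGCGG of SP and KLF factors, to CACCC, another KLF-type motif, to the AP-1 motif TGANTCA, and to CACCTG, the E-box form bound by Snail proteins.
Cldn1, chr16:26371840-26372089, minus strand: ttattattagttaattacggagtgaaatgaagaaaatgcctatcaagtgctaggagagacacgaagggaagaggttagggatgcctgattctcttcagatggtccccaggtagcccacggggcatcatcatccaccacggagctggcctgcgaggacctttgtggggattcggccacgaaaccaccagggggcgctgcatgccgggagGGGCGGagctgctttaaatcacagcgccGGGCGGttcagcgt
Cldn4, chr5:134946935-134947184, minus strand: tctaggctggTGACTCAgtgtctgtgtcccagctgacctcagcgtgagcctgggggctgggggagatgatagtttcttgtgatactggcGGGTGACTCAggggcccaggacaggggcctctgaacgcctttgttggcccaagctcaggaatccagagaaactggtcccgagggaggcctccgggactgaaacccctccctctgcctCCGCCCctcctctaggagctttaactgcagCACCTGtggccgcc
Cldn3, chr5:134985964-134986213, plus strand: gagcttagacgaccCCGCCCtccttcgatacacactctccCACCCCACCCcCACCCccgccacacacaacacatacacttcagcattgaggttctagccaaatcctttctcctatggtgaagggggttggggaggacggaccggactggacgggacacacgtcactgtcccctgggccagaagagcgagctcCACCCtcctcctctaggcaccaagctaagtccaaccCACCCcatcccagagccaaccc
Tjp1, chr7:65371245-65371494, minus strand: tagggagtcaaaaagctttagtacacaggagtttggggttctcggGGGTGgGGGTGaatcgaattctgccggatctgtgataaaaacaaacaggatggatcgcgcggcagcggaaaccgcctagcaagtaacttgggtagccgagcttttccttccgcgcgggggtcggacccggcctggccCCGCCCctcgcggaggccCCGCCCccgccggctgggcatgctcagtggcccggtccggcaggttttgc

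The Cldn1 window held the GC box 2 times, the nearer match beginning 14 bases before the start, and no match to CACCC, AP-1 or CACCTG. The Cldn4 window held 2 AP-1 matches, 1 CACCTG, 1 GC box and 1 CACCC match that shares letters with an AP-1 match. In the Cldn3 window CACCC occurred 5 times and the GC box 1 time, and in the Tjp1 window each of them occurred 2 times. Counted by gene, with any of its windows, the GC box was present for 7 of the 7 genes with an entry and for 35.4% of the 27025 genes in the table. Of their 11 windows 9 held it, and 2 of these are overlapping Cldn12 windows that hold the same match. Over all genes, 32.7% of 32851 windows held the GC box. The 7 genes have more windows per gene than the table as a whole, which favours them in a count by gene. The 11 windows were also richer in G and C, with a median of 60.8% against 52.4% over all windows. Among the 24394 windows within their range of G and C content, 42.0% to 69.2%, the GC box was present in 32.0%. The median G and C content of those windows was 53.2%, below that of the 11 windows. They are therefore not matched in composition, and the part of G and C content in the GC box count was not tested. AP-1 was present for 1 of the 7 genes, Cldn4, and for 7.8% of all genes. CACCTG was present for Cldn4, Cldn7 and Ocln and for 19.4% of all genes, and CACCC for 6 of the 7 genes and for 54.5% of all genes. The general E-box CANNTG, which includes CACCTG and is not capitalised, occurred for 4 of the 7 genes and for 69.3% of all genes. Neither AACCGGTT, a Grainyhead motif, nor the TATA box TATAAA was found in any of the 11 windows. AACCGGTT occurred for 0.1% of all genes and TATAAA for 14.3%. These matches describe letters and say nothing about binding.

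The deposited values are log2 intensities, so a difference of 1 is a 2-fold difference in intensity, and every difference below is the injured minus the uninjured value. The table runs from 2.54 to 14.07, and a gene counted as measured when the brighter of its values reached the median over the table, 5.44, called the low-signal level below. All 9 genes passed in both arrays, and 19512 genes passed in all. With 1 array per group there is no spread between samples, no test was run, and genes are called higher or lower by the size of the difference, 2-fold or more. The disagreement between different rows of 1 gene, an SD of 0.24 in the log2 difference over 542 rows of 256 genes, is the measure of error that these arrays give. It holds no difference between animals. No detection call was given, and with 1 array per group the precision of a difference between the groups is not known.

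Tight junction genes did not share 1 direction in the healing epithelium. Cldn1 and Cldn8 were more than 2-fold higher in the injured array, Cldn23 was more than 2-fold lower, and the other 6 genes were less than 2-fold apart. Cldn7, Tjp1 and Ocln stood between 1.48-fold and 1.57-fold lower, and Cldn3, Cldn4 and Cldn12 were nearest to equal. In bulk RNA, fewer cells of a type cannot be told apart from less RNA per cell. Markers of the corneal epithelium also differed in both directions, Krt12 by -3.22, Krt5 by -0.16 and Krt14 by 2.23, and their part in the values of the 9 genes was not tested. Of the 9 genes 2 were thus at least 2-fold higher, where 4.14% of all measured genes were, and 1 was at least 2-fold lower, where 3.92% of all measured genes were. All 9 reached the 75th percentile of the table, 6.93, in their brighter array, and among the 12056 genes that did so the shares were 6.14% higher and 5.76% lower. At 1.5-fold the counts were 2 higher and 2 lower, with Cldn7 added, beside 11.1% higher and 8.76% lower of all measured genes. At 4-fold both counts were 0, beside 0.707% higher and 0.779% lower. The median difference of the 9 genes was -0.16, against 0.06 over all measured genes, and 5 of the 9 lay below 0, as did 40.8% of all measured genes.

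**Figure D1:**
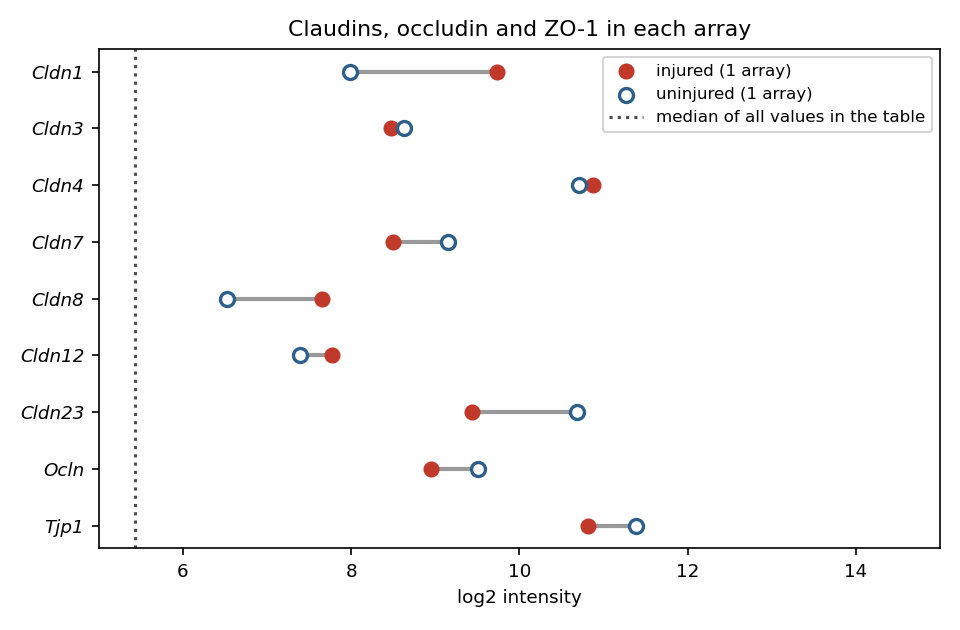
Log2 intensity of each of the 9 genes in the injured array (filled red) and the uninjured array (open blue), 1 array each, so there are no error bars. The dotted line is the median over the table, 5.44. The red point lies well to the right of the blue one for Cldn1 (9.73 against 7.98) and Cldn8 (7.65 against 6.52) and to the left for Cldn23 (9.44 against 10.69).

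Among the claudins, Cldn1 differed most. It encodes the claudin without which the mouse epidermis fails to hold water. Its log2 intensity was 9.73 in the injured array and 7.98 in the uninjured array. The injured value was 1.75 higher, a ratio of 3.36 and 7.24 times the SD between rows of 1 gene. Counted from the highest difference, Cldn1 stood at place 199 of the 19512 measured genes, and 2.12% of them were at least as far apart in either direction.

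Cldn8, which in the mouse kidney collecting duct helps to place Cldn4 in the junction, was the other claudin past 2-fold on the higher side. Its log2 intensity was 7.65 in the injured array and 6.52 in the uninjured array. The difference of 1.13 is a ratio of 2.19, and 6.14% of the measured genes were at least as far apart. The uninjured value of Cldn8 lay 1.08 above the low-signal level, the smallest such margin of the 9 genes, and that of Cldn1 lay 2.55 above it.

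Cldn23 was the claudin with the lowest difference. Its product is found in the differentiated surface cells of the intestine. Cldn23 had a log2 intensity of 9.44 in the injured array and 10.69 in the uninjured array. The injured value was thus 2.37-fold lower (-1.25), place 477 from the lowest among all measured genes, and 4.99% of these were at least as far apart. Set against each other, the ratio of the Cldn1 to the Cldn23 signal was 7.98-fold higher in the injured array. These are the genes with the highest and the lowest difference of the set, so the ratio only restates those differences.

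Cldn7, a claudin that also lies along the sides of epithelial cells, was 8.50 in the injured array and 9.15 in the uninjured array. The difference of -0.65 is 1.57-fold, beyond the SD between rows of 1 gene but short of 2-fold, and 17.2% of all measured genes were at least as far apart. Cldn12, linked to calcium passage in the gut, was 7.77 in the injured array and 7.40 in the uninjured one, a difference of 0.38 or 1.30-fold. A difference of that size or more was seen in 32.3% of the measured genes.

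Cldn4 and Cldn3, the receptors of a clostridial toxin and sealing claudins of many epithelia, gave almost the same value in both arrays. Cldn4 was 10.88 in the injured array and 10.71 in the uninjured array, and Cldn3 was 8.47 injured and 8.63 uninjured. Their differences, 0.17 for Cldn4 and -0.16 for Cldn3, were smaller than the SD of 0.24 between rows of 1 gene, so no direction can be read for either.

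Ocln, which encodes occludin, was 8.95 in the injured array and 9.51 in the uninjured array, 1.48-fold lower (-0.56). Tjp1, which encodes ZO-1, was 10.81 in the injured array and 11.39 in the uninjured array, 1.49-fold lower (-0.57). These nearly equal differences were each more than 2 times the SD between rows of 1 gene. At least as far apart were 21.0% of the measured genes for Ocln and 20.4% for Tjp1. Relative to Ocln the Cldn1 signal was 4.96-fold higher in the injured array, and relative to Tjp1 5.01-fold higher. Cldn1 has the highest difference of the set, so these ratios, too, only restate the differences already given.

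Cldn8 and its chromosomal neighbour Cldn17 differed unequally. In RefSeq's gene order Cldn4 lies next to Cldn3, Cldn8 next to Cldn17, and Cldn1 next to Cldn16. Cldn3 and Cldn4 were alike in being near equality, 0.33 apart in their log2 differences. Cldn17, a claudin that forms anion channels, was nearly equal in both arrays, 9.34 injured and 9.37 uninjured, beside the 1.13 of Cldn8. Cldn16, which serves magnesium uptake in the kidney, lay below the low-signal level in both arrays, so it cannot be set against Cldn1.

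The rest of the claudin family differed little. Of 30 further claudin genes 26 had a row of their own, 2 of them under the symbols Tmem114 and Tmem235, and 13 of these were measured. None of the 13 was 2-fold higher or lower, beside 4.14% higher and 3.92% lower of all measured genes, so a count of 0 is close to those shares. Their differences ran between -0.13 and 0.22, the furthest apart being Cldn14 at 0.22 and Cldn9 at 0.18. The median was 0.07, against 0.06 over all measured genes. Apart from Cldn17, the 12 others lay close to the low-signal level, at 5.51 to 6.64 in the injured and 5.29 to 6.58 in the uninjured array. At that signal a difference in a rare transcript may not be detectable. The 13 below the low-signal level, among them Cldn2, Cldn6, Cldn10 and most of the Cldn34 genes, differed by -0.28 to 0.25. One further row that the platform annotation calls Cldn25 belongs by its gene identifier to Cldnd1, a claudin-domain gene, and read 9.67 in the injured array and 10.07 in the uninjured one.

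**Figure D2:**
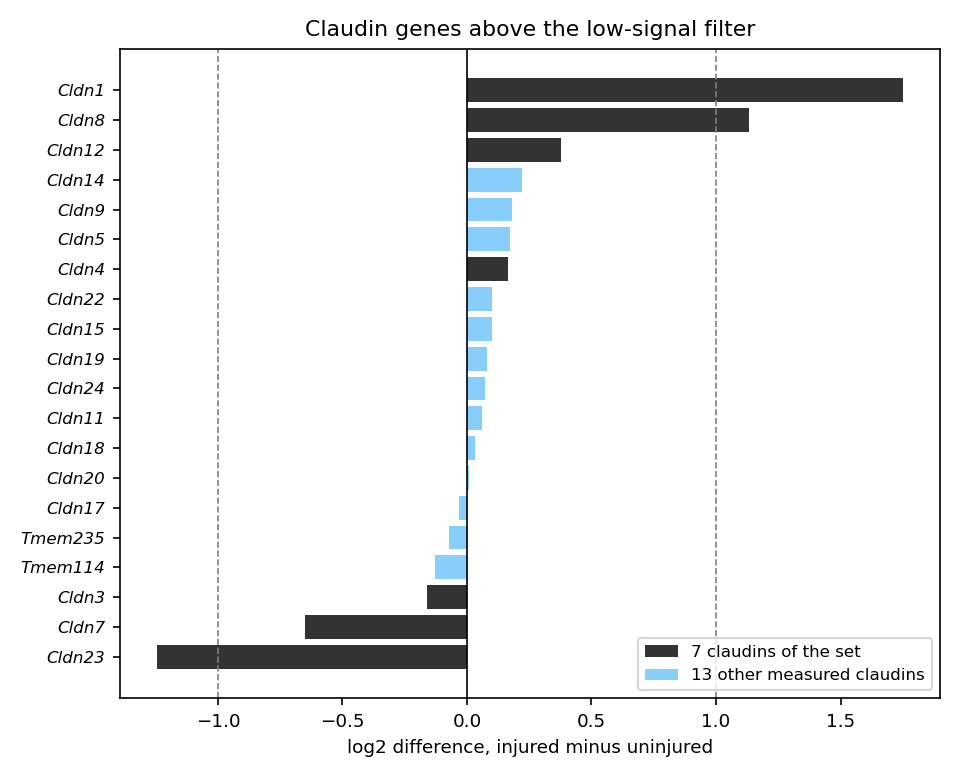
Log2 difference, injured minus uninjured, of the 20 claudin genes above the low-signal filter, sorted from highest to lowest, with the 7 claudins of the set in dark and the 13 others in light bars. Dashed lines mark 2-fold. Cldn1 (1.75) and Cldn8 (1.13) pass the upper and Cldn23 (-1.25) the lower line, and all light bars lie between -0.13 and 0.22.

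Other membrane proteins of the tight junction were less than 2-fold apart as well. The list of 13 held 9 measured genes, of which 0 were at least 2-fold higher or lower, beside 4.14% higher and 3.92% lower of all measured genes. In a list this short, 0 is close to those shares. Of the 9 genes 6 lay below 0, where 40.8% of all measured genes did, and the median was -0.13. The lowest was Ildr1, one of the angulins that mark corners where 3 cells meet, at 8.49 in the injured array and 9.38 in the uninjured one (-0.89). Cxadr, an adhesion receptor used by adenoviruses, was 8.50 injured and 9.00 uninjured (-0.50). F11r, which encodes the junctional adhesion molecule JAM-A, was 10.37 injured and 10.82 uninjured (-0.45). On the other side Lsr, an angulin like Ildr1, had the highest difference of the list, at 8.38 injured and 7.97 uninjured (0.42).

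Among plaque and polarity proteins, which bind the inner side of the junction, 3 genes were at least 2-fold lower. Of 25 measured genes 16 lay below 0, where 40.8% of all measured genes did, and the median was -0.30. The 3 genes at least 2-fold lower, beside 3.92% of all measured genes, were Tjp3, Magi3 and Pard3b. At least 2-fold higher were 0, beside 4.14% of all measured genes. Tjp3, which encodes the ZO-1 relative ZO-3, was 8.22 in the injured array and 9.63 in the uninjured one (-1.41), lower than Tjp1 by a further 0.83 on the log2 scale. The membrane scaffold gene Magi3 was 8.21 injured and 9.40 uninjured (-1.18), and the polarity gene Pard3b was 6.01 injured and 7.18 uninjured (-1.17). Cgn, which encodes the ZO-1 partner cingulin, was 8.01 injured and 8.85 uninjured (-0.84), short of 2-fold.

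**Figure D3:**
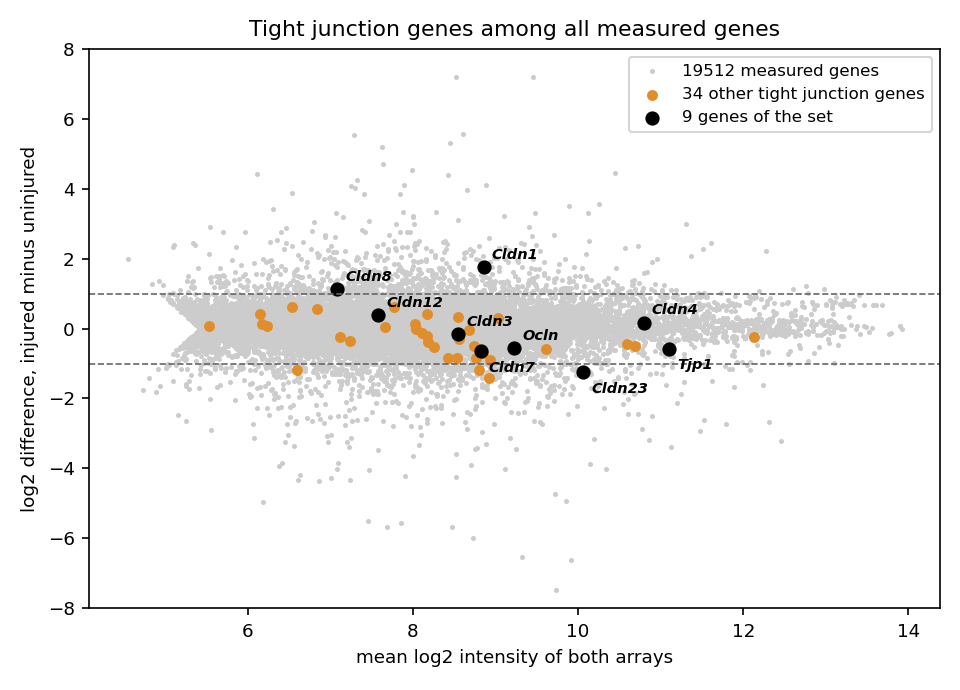
Log2 difference, injured minus uninjured, against the mean log2 intensity of both arrays for the 19512 measured genes (grey), 34 other genes of the tight junction membrane, plaque and polarity lists (orange) and the 9 genes of the set (black). Dashed lines mark 2-fold. Cldn1, Cldn8 and Cldn23 lie outside the lines, and the other 6 black points lie between them.

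The adherens junction, the belt just below the tight junction, held the largest difference of any junction list examined here. Cdh3, which encodes P-cadherin, a cadherin of basal epithelial cells, was 10.22 in the injured array and 7.62 in the uninjured one, 2.60 higher. Cdh1, which encodes E-cadherin, was 11.82 injured and 11.46 uninjured (0.35). Of 13 measured genes Cdh3 alone was at least 2-fold higher, beside 4.14% of all measured genes. At least 2-fold lower were 0, beside 3.92% of all measured genes, and the median was -0.10. Nectin4, an adhesion gene chosen after its value was seen, was just short of 2-fold lower at 8.32 injured and 9.31 uninjured. It passed 2-fold with equal medians and under the other 3 rescalings tried, which makes that count 1.

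Among proteins that bind, cleave or modify claudins, Epcam had the highest difference. Its product binds Cldn7 and protects it from breakdown. Epcam was 10.43 in the injured array and 9.00 in the uninjured one, 1.43 higher, while Cldn7 itself was lower by 0.65 on the log2 scale. Prss8, a membrane serine protease that acts in epidermal barrier formation, was 9.09 injured and 10.36 uninjured (-1.27). Lnx1, a ubiquitin ligase for claudins, was 5.94 injured and 7.29 uninjured (-1.35). Of 12 measured genes these 3 passed 2-fold, 1 higher and 2 lower, beside 4.14% higher and 3.92% lower of all measured genes, and the median was -0.18.

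Transcription factors known to act on epithelial junction genes held values in both directions. Of 14 measured, 12 lay below 0, where 40.8% of all measured genes did, with a median of -0.35, and 2 were at least 2-fold lower, beside 3.92% of all measured genes. Klf4, a factor needed for the corneal epithelial barrier in mice, was 10.31 injured and 11.58 uninjured (-1.27), and Foxo1 was 8.19 injured and 9.35 uninjured (-1.16). None was at least 2-fold higher, beside 4.14% of all measured genes. The highest difference was that of Snai2, which encodes a Snail protein, at 11.21 injured and 10.42 uninjured (0.79).

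**Figure D4:**
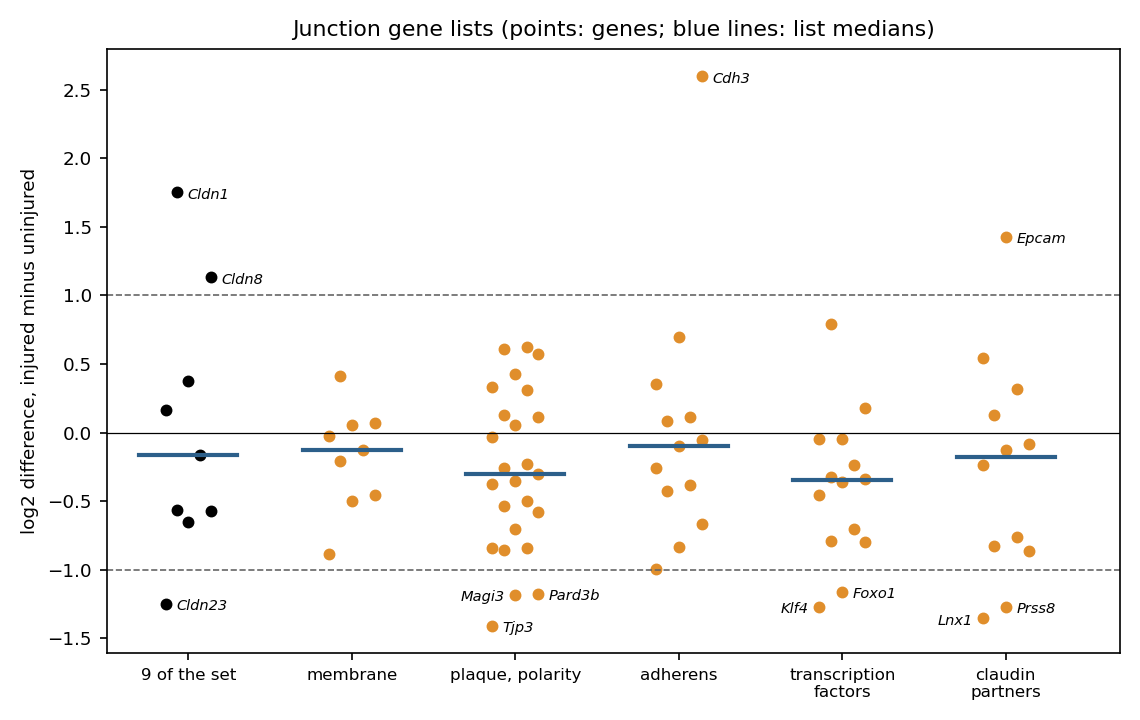
Log2 difference, injured minus uninjured, of each measured gene in the set of 9 and in 5 further junction lists, with the list median as a blue line. Dashed lines mark 2-fold and genes beyond them are named. The medians lie between -0.35 for the transcription factors and -0.10 for the adherens junction genes.

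Markers of the corneal epithelium differed between the arrays. All 6 corneal epithelial markers lay above the low-signal level in both arrays. Krt12, the corneal keratin, was 10.85 injured and 14.07 uninjured, Aldh3a1 10.98 injured and 13.66 uninjured, and Pax6 9.31 injured and 10.63 uninjured, whereas the basal keratin Krt14 was 13.38 injured and 11.16 uninjured. Krt5, its partner keratin, was 13.69 injured and 13.85 uninjured, and Clu was 10.21 injured and 10.61 uninjured. The uninjured Krt12 value is the highest in the table, and whether that row was saturated was not tested. The summed linear intensity of the corneal list was 29598 in the injured array and 50389 in the uninjured one. For 8 conjunctival and goblet cell markers the sum was 13330 injured and 10697 uninjured. Of these, Krt8 (1.52), Krt7 (1.34) and Krt19 (1.11) were at least 2-fold higher, Muc5ac was lower (-1.26), and Krt4 (0.14) and Krt13 (-0.29) were less than 2-fold apart. The part of these markers in the claudin values was not tested.

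Markers of other tissues ranged from below the low-signal level to well above it. Among 8 endothelial markers Pecam1 was 5.19 injured and 4.94 uninjured and Cldn5, the claudin of blood vessels, was 6.63 injured and 6.46 uninjured. Only Col8a1 of that list was 2-fold apart, at 6.35 injured and 4.95 uninjured, and the endothelial sums were 473 injured and 396 uninjured. Of 6 stromal markers Dcn was 2-fold apart, at 4.77 injured and 6.09 uninjured. The uninjured Col8a1 and the injured Dcn value lie below the low-signal level, so the size of both differences is uncertain. Col1a1 was 7.18 injured and 7.29 uninjured, Col1a2 6.53 injured and 6.66 uninjured, and Ptgds 6.66 injured and 6.46 uninjured. These lay above the low-signal level, as did the endothelial marker Col8a2, at 6.78 injured and 6.72 uninjured. Kera and Lum lay below it in both arrays. The stromal list had sums of 393 injured and 446 uninjured. Of 6 leukocyte markers Ptprc was 4.39 injured and 4.29 uninjured, and Cd68 was 9.12 injured and 8.92 uninjured. Itgam was lower (-1.55), and the other 4 measured leukocyte markers were less than 2-fold apart and above 0. The leukocyte sums were 1166 injured and 1884 uninjured with Itgam, and, in a sum added after the values were seen, 746 injured and 656 uninjured without it. Among melanocyte and nerve markers Mlana was 6.07 injured and 5.80 uninjured, with sums of 151 injured and 146 uninjured over 3 genes. No marker list was at 0, since array intensities have no true 0, and the part of these lists in the claudin values was not tested.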

How the data were processed

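RNA was measured on 2 microarrays, 1 injured and 1 uninjured. The authors deposited log2 intensities for 65952 rows. Agilent Feature Extraction 9.1 is named in the submitters' processing notes, and per the labels 2 µg of RNA was amplified and labelled with biotin. The row identifiers, though, have the form of transcript clusters, which are not Agilent probe names, so how probes became a row value is uncertain. How background, probe summary and normalization were handled, and on which genome build, is not stated in the labels or the file. The column medians differed by 0.014, under the limit of 0.1 set for a table already normalized, so the values were kept as deposited.

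Rows were named from the platform annotation, with older symbols updated through RefSeq's GRCm38.p6 tables: 31254 rows carried 1 gene, 1492 several, and 33206 are unnamed here. A row was kept when its brighter value reached the median of all values, 5.44, and the row with the highest mean stood for a gene with several. Differences are injured minus uninjured; with 1 array per group no p-value was computed. The scripts were tested on simulated data (Python 3.11.15, pandas 2.3.3, numpy 2.4.6). Promoter windows came from RefSeq's table and were cut to the 250 bases before each start.

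The members, the lists and the alternatives were chosen with earlier results of these data known. Named were every member, from each list the genes at least 2-fold apart (at most 5 in each direction, otherwise the 2 furthest apart), Tjp3, F11r, Cdh1, Cgn and Epcam whatever their values, and a few markers. Cldn16, Cldn17, Cldnd1, Nectin4, Cldn2, Cldn6, Cldn10, Lsr, Snai2, Krt5, Clu and Cd68 lie outside this rule and were chosen after their values were seen. The same holds for Col1a1, Col1a2, Ptgds, Col8a2, Kera and Lum. As alternatives, the arrays were rescaled by quantiles, by medians, by 75th percentiles or by loess (span 0.3, statsmodels 0.14.6), the low-signal filter and the choice of row were changed, 16 was added to each linear value, and the threshold was set to 1.5-fold or 4-fold.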

Additional observations from a re-analysis of the deposited data

How the results depend on the processing

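Under the 4 rescalings and the constant of 16 each of the 9 genes kept its sign and moved by less than the 0.24 SD between rows of 1 gene. Equal medians and equal 75th percentiles each shift all genes by the same amount. The column medians were only 0.014 apart and the 75th percentiles were 6.933 injured and 6.928 uninjured. Those rescalings therefore could not have moved a gene by 0.24. Cldn1 ranged between 1.69 and 1.75, Cldn8 between 1.01 and 1.14, Cldn23 between -1.29 and -1.23, and Tjp1 between -0.66 and -0.56. Cldn8 came closest to 2-fold (1.01), with the constant of 16 added. The counts of 2 higher and 1 lower were the same under these alternatives. The other filters and choices of row could not change them, since each gene has 1 row and passes every filter tried. At 1.5-fold the lower count was 2, through Cldn7, and at 4-fold both counts were 0. The adherens junction count of lower genes was 1 with quantile normalization, equal medians, equal 75th percentiles or loess, in place of 0. At 1.5-fold, 11.1% of all measured genes were higher and 8.76% lower. Beside these shares, 1 of 9 tight junction membrane genes was lower, and of 25 plaque and polarity genes 2 were higher and 7 lower. In the adherens junction 2 of 13 were higher and 3 lower. Among transcription factors 1 of 14 was higher and 5 were lower, and among claudin partners 1 of 12 was higher and 5 were lower. At 4-fold the lower counts of plaque and polarity proteins, transcription factors and claudin partners and the higher count of claudin partners were 0. The higher count of the adherens junction stayed at 1, through Cdh3. Of all measured genes 0.779% were lower and 0.707% higher at that threshold. No paired analysis was possible because each group has 1 array. For the same reason no replicate could be left out. Without scanner files, the signal over background behind the dim claudins is not known here.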
